A study of Mus musculus with 8 samples.

Results

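The 9 genes described here are Ifnb1, which encodes interferon beta, and 8 interferon regulatory factor genes, Irf1, Irf2, Irf3, Irf4, Irf5, Irf7, Irf8 and Irf9. They were chosen by name, as the gene probes whose transcript accession maps to one of these symbols. They make up 9 of 37018 genes and transcripts on the array and are covered by 10 of 55681 gene probes. All 9 passed the filter on dim features. Where a gene had more than 1 probe, the brightest over all arrays was used, which concerned Irf1 alone.

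Peritoneal macrophages came from LysMCre-fur(fl/fl) mice (KO), in which Cre recombinase made from the lysozyme M locus deletes floxed fur, the gene of the proprotein convertase FURIN, in myeloid cells, and from WT littermates, both on a C57BL/6 background. The age of the mice, whether the WT littermates carried LysMCre, and whether cells of several animals were pooled are not given in the sources used here. Cells of each genotype were left unstimulated or received LPS, a bacterial cell wall lipid that activates Toll-like receptor 4, at 1 μg/ml for 1, 4 or 24 h. On each of the 8 two-colour arrays WT RNA was set against KO RNA from the matching time, with KO in Cy5 on replicate 1 and in Cy3 on replicate 2, so that each genotype and time has 2 channels, labelled as biological replicates. P-values therefore measure the spread between these samples, except where a replicate block, described further on, took part of it out. Times were taken from the sample titles, since the growth protocol gives 4 h for every sample.

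Interferon regulatory factors share a DNA-binding domain that reads a GAAA-containing element. Phosphorylation of Irf3, Irf5 and Irf7 below pattern recognition receptors lets them enter the nucleus, and Irf3 and Irf7 with NF-kappa-B switch on Ifnb1. Secreted interferon beta signals through its receptor and Janus kinases to a complex that holds Stat2 and Irf9 and binds the interferon-stimulated response element of its target genes, Irf7 among them. Irf1 is an activator and Irf2 mostly a competitor at the same elements, whereas Irf4 and Irf8 act with partner factors such as PU.1 in myeloid and B cells. In macrophages LPS reaches Irf3 through the adaptor TRIF.

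Sequence upstream of the annotated transcript starts is shown for the members that hold a match to a searched motif, so that the elements named above can be seen. The sequences are RefSeq promoters of build GRCm38.p6, which listed all 9 genes in 12 windows, and only the 250 bases before each start were read (the first 150 of them are printed for Ifnb1). Capitals mark matches, found on both strands, to the core of the interferon-stimulated response element (GAAA, any 2 bases, GAAA), the shorter interferon regulatory factor site AANNGAAA, the core of the gamma-activated site TTCNNNGAA, or the kappa-B motif. The shorter site was added after the matches of the other motifs had been seen, and it can overlap the response element core.
Ifnb1 (chr4:88522895-88523044, minus strand): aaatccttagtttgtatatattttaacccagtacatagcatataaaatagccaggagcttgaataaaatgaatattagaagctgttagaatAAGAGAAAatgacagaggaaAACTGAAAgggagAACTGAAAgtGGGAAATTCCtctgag
Irf1 (chr11:53769764-53770013, plus strand): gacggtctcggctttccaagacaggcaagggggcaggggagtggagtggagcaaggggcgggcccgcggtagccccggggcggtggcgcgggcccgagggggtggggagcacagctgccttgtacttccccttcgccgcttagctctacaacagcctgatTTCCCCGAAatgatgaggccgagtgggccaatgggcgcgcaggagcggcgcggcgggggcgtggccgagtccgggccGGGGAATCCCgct
Irf2 (chr8:46739495-46739744, plus strand): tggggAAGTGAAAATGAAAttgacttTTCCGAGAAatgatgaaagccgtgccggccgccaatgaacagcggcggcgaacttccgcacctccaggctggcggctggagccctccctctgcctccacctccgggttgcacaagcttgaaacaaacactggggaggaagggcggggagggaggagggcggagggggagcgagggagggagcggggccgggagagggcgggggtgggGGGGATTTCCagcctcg
Irf8 (chr8:120736108-120736357, plus strand): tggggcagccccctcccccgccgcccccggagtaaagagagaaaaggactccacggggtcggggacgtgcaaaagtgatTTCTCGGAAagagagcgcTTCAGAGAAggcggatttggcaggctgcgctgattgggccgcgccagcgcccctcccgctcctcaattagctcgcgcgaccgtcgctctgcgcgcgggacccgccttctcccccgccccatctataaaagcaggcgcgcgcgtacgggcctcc
In Ifnb1 the shorter site matched at 159 to 152, 139 to 132 and 126 to 119 bases before the start, and kappa-B from 116 bases before it. Irf1 held a gamma-activated site core at 90 to 82 bases and kappa-B at 13 to 4 bases before its start. Irf2 was the member with a response element core, at 241 to 232 bases, with shorter sites at 245 to 238 and 239 to 232, a gamma-activated site core at 224 to 216 and kappa-B at 17 to 8. Irf8 held gamma-activated site cores at 171 to 163 and 153 to 145 bases. These letters were not found in the 250 bases before the annotated starts of Irf3, Irf4, Irf5, Irf7 and Irf9, nor in the other windows of Irf1 and Irf8. Of all 32851 promoters of the same length, 2.98% held the response element core, 21.3% the shorter site, 7.02% the gamma-activated site core and 7.25% kappa-B. Of the 12 windows of the 9 members, 8.33% held the response element core, 16.7% the shorter site, 25% the gamma-activated site core and 25% kappa-B. Of 23 windows of 20 genes from the list of type I interferon-stimulated genes, which also names genes not measured, 39.1% held the response element core, 60.9% the shorter site, 17.4% the gamma-activated site core and 26.1% kappa-B.

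**Figure D1:**
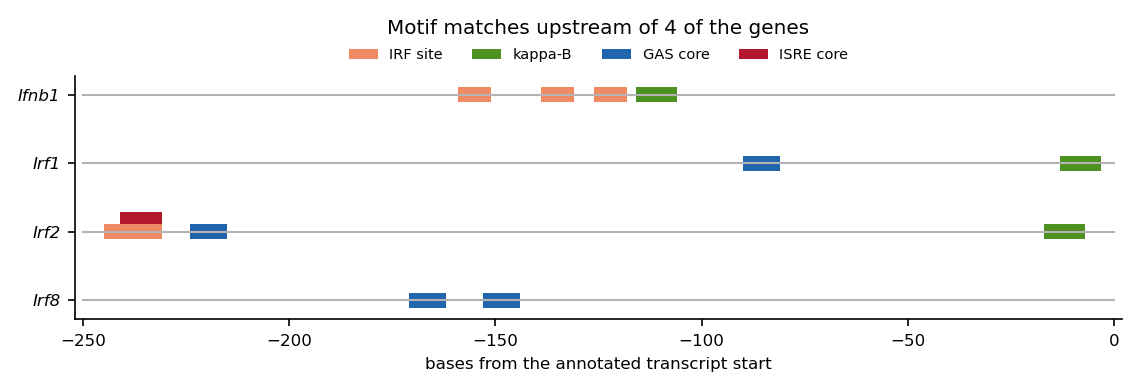
Motif matches in the 250 bases upstream of Ifnb1, Irf1, Irf2 and Irf8. The x axis gives bases from the annotated transcript start, the grey line is the window searched and each coloured bar spans a match. The 3 shorter sites of Ifnb1 lie between 159 and 119 bases before its start, next to its kappa-B match, and the red bar of Irf2, at 241 to 232 bases, is the response element core.

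Between 43.8% and 51.3% of the gene spots of a channel were well above background by the scanner software's own call. The Furin probe, the check of the knockout, was lower in KO RNA by 0.59 and 0.85 (log2) without LPS, by 0.56 and 0.55 at 1 h and by 0.59 and 0.69 at 24 h, but on the 4 h arrays its KO/WT ratio was 0.00 and 0.33. The RNA labelled KO at 4 h thus goes against its label for this probe, and the place of the probe relative to the deleted part of the gene is not given in the sources used here. Lyz2, the locus that carries Cre, was lower in KO on all 8 arrays, between -1.85 and -0.75 (log2). Counts that follow are therefore also given without the 4 h arrays where that changes them. All 5 macrophage markers (Adgre1, Csf1r, Itgam, Mertk, Fcgr1) and all 6 markers of large peritoneal macrophages were well above background in every channel. So were all 8 B cell markers, 5 of 6 mast cell markers, 6 of 9 markers of T and NK cells, 4 of 7 of dendritic cells, 1 of 7 of mesothelial and stromal cells (Dcn) and 1 of 5 of neutrophils (S100a8, between 10.64 and 15.97), and the other 4 neutrophil markers (S100a9, Mpo, Ngp and Retnlg) were in no channel. Averaged over the 4 times, Csf1r was 1.32-fold lower in KO (adjusted p = 0.0182) and Icam2, a marker of large peritoneal macrophages, 1.27-fold higher (adjusted p = 0.0268). The other 4 macrophage markers lay between -0.24 and 0.64 (log2) in that mean and the other 5 of large peritoneal macrophages between -0.29 and 0.12, none past the threshold, and their part in the results below was not tested. In RNA from such mixed cells, fewer cells of a type and less RNA per cell cannot be told apart.

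Ifnb1 was the member with the widest range of levels. Its probe was not well above background in unstimulated cells of either genotype, at log2 intensities of 6.09 and 6.08 in WT and 6.19 and 6.20 in KO (replicates 1 and 2). In WT it stood at 13.22 and 12.97 after 1 h of LPS, 13.06 and 13.48 after 4 h and 7.71 and 7.63 after 24 h. In KO the values were 12.72 and 13.30, 13.16 and 13.08, and 8.50 and 8.26. The 1 h and 4 h channels of both genotypes overlapped, and both fell far back by 24 h while staying well above background. Against the background level, Ifnb1 was at least 128-fold higher at 1 h, at least 144-fold at 4 h and at least 2.93-fold at 24 h in WT, and at least 111-fold, 121-fold and 4.53-fold higher in KO (the lower of the bounds with quantile and Aquantile scaling, limma adjusted p between 5.87e-12 and 9.67e-06). From 4 h to 24 h it fell by 5.60 (log2, SE 0.179, 48.5-fold) in WT and by 4.74 (SE 0.179, 26.8-fold) in KO.

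Irf7, which amplifies interferon production, rose late. Its level was 9.32 and 8.89 in unstimulated WT and 9.59 and 9.88 in unstimulated KO, and at 1 h it was 9.69 and 9.19 in WT and 9.59 and 9.81 in KO. It reached 14.72 and 14.28 at 4 h, then 15.20 and 14.96 at 24 h in WT, and 14.76 and 14.56, then 15.02 and 15.18, in KO. The channels at 1 h lay among the unstimulated ones, and all channels at 4 h and 24 h lay over 4 log2 units higher. The change in WT was 0.33 at 1 h (SE 0.203, adjusted p = 0.469), 5.39 at 4 h (42.0-fold, adjusted p = 1.89e-10) and 5.97 at 24 h (62.8-fold, adjusted p = 1.4e-10). In KO it was -0.04, 4.92 (30.3-fold, adjusted p = 4.35e-10) and 5.36 (41.1-fold, adjusted p = 4.5e-10). The further change from 4 h to 24 h passed the test in WT (0.58, adjusted p = 0.0459) and did not in KO (0.44, adjusted p = 0.13). With the replicate number as a block it passed in both, at adjusted p = 0.00137 and 0.00865, and the WT call was lost without replicate 1 at 24 h (adjusted p = 0.262), replicate 2 at 24 h (0.0802) or replicate 2 at 4 h (0.355) and with the mean of the probes of a gene (0.0526).

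Irf9, the DNA-binding part of the interferon response complex, was lower at 1 h, highest at 4 h and between the unstimulated and 4 h levels at 24 h. Its WT levels were 11.63 and 11.60 without LPS, 11.22 and 11.06 at 1 h, 13.45 and 13.46 at 4 h, then 12.97 and 13.03 at 24 h, and the KO channels lay between 0.01 and 0.26 above them on the same arrays. It was lower at 1 h in WT (-0.48, SE 0.0995, adjusted p = 0.00743) and KO (-0.53, adjusted p = 0.00405), then 3.56-fold and 3.32-fold higher at 4 h and 2.61-fold and 2.46-fold higher at 24 h. The 1 h calls were the fragile ones. In WT the call was lost without replicate 2 at 1 h (adjusted p = 0.111) or unstimulated replicate 1 (0.0543), and in KO without replicate 2 at 1 h (0.0608) or unstimulated replicate 2 (0.0687). Irf3 and Irf5, which sit with Irf7 directly below the receptors, moved little. Irf3 lay between 12.31 and 13.27 in all 16 channels and was 1.43-fold lower at 4 h in WT (-0.52, SE 0.0848, adjusted p = 0.000215) and 1.44-fold lower in KO (-0.53, adjusted p = 0.000168). At 1 h it was higher, by 0.26 in WT (adjusted p = 0.0882) and by 0.36 in KO (adjusted p = 0.0168). That KO call was lost without any of the 4 arrays at 0 h and 1 h (adjusted p from 0.063 to 0.182) and with loess alone (0.225). Irf5 lay between 12.39 and 13.48. It was 1.41-fold higher at 4 h in WT (adjusted p = 0.0179) and 1.33-fold in KO (adjusted p = 0.0459), and from 4 h to 24 h it fell by 0.90 in WT (adjusted p = 0.000303) and by 0.89 in KO (adjusted p = 0.000311). Its 4 h calls were lost in WT without replicate 1 at 4 h (adjusted p = 0.132) and in KO without either 4 h array, either 24 h array or unstimulated replicate 1 (adjusted p from 0.0716 to 0.498), and both were lost with loess alone in place of scaling between arrays (0.0644 and 0.109).

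Irf1 was higher at 1 h and 4 h of LPS in both genotypes. The direct comparison of KO with WT, given further on, did not pass at any time. In WT its levels were 14.37 and 14.36 without LPS, 16.46 and 16.25 at 1 h, 16.16 and 16.34 at 4 h, then 13.44 and 13.58 at 24 h. In KO they were 14.38 and 14.40, 16.02 and 15.88, 16.20 and 15.77, and 14.45 and 14.50. Unstimulated levels of KO and WT differed by 0.01 and 0.04 on the same arrays, at 1 h both KO channels lay below both WT channels, and at 24 h the WT channels lay below their unstimulated ones while the KO channels lay just above theirs. The rise was 3.96-fold in WT (adjusted p = 4.08e-07) and 2.94-fold in KO (adjusted p = 5.74e-06) at 1 h, and 3.70-fold and 3.02-fold at 4 h. At 24 h Irf1 was 1.81-fold lower than in unstimulated cells in WT (-0.85, SE 0.135, adjusted p = 0.000207), and in KO the difference was 0.09 (SE 0.135, adjusted p = 0.737). With loess alone in place of scaling between arrays these became -0.44 (adjusted p = 0.0905) in WT and 0.52 (adjusted p = 0.0442) in KO, so that the WT call was lost and a KO call gained, and with the mean of both Irf1 probes, the second of which was at background without LPS and at 24 h, the WT change was -0.38 (adjusted p = 0.00445).

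Irf2, the competitor of Irf1, fell late. WT levels were 10.91 and 10.89 without LPS, 11.08 and 10.99 at 1 h, 11.01 and 10.66 at 4 h, then 9.89 and 9.94 at 24 h. KO levels were 11.52 and 11.33, 11.22 and 11.16, 11.08 and 10.94, and 10.18 and 10.21. At each time both KO channels were above both WT channels except at 4 h, where KO replicate 2 lay below WT replicate 1. Relative to unstimulated cells it was 1.98-fold lower at 24 h in WT (-0.99, SE 0.114, adjusted p = 1.18e-05) and 2.34-fold lower in KO (-1.23, adjusted p = 1.63e-06). At 4 h the KO change was -0.41 (adjusted p = 0.0102), a call lost without unstimulated replicate 1 (adjusted p = 0.127), and the WT change was -0.07 (adjusted p = 0.746), or -0.43 (adjusted p = 0.0204) with loess alone.

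Irf4, known for roles in alternatively activated macrophages and in B cells, rose at every time. Its WT levels were 10.69 and 11.13 without LPS, 12.21 and 12.71 at 1 h, 13.22 and 13.48 at 4 h, then 12.44 and 12.18 at 24 h, and its KO levels 10.89 and 11.20, 12.49 and 12.76, 12.85 and 13.53, and 12.34 and 12.52. No channel with LPS overlapped the unstimulated ones. In WT the rise was 2.93-fold at 1 h (adjusted p = 0.000467), 5.42-fold at 4 h (adjusted p = 8.74e-07) and 2.64-fold at 24 h (adjusted p = 0.000233), and in KO it was 2.99-fold, 4.42-fold and 2.61-fold. Irf8, which directs macrophage and dendritic cell development, went down, up and down again. Its WT levels were 14.55 and 14.48, then 13.51 and 13.77 at 1 h, 14.79 and 14.88 at 4 h, then 13.69 and 13.72 at 24 h, and its KO levels 14.29 and 14.23, 13.74 and 13.61, 14.69 and 14.75, and 14.09 and 14.02. In WT it was 1.83-fold lower at 1 h (adjusted p = 7.23e-05) and 1.75-fold lower at 24 h (adjusted p = 2.74e-05). In KO the change was -0.58 at 1 h (adjusted p = 0.00258) and the 24 h change was -0.20 (SE 0.102, adjusted p = 0.178). At 4 h it was 0.32 above unstimulated cells in WT (adjusted p = 0.0257) and 0.46 in KO (adjusted p = 0.00238), and the WT call was lost without any of the 4 arrays at 0 h and 4 h (adjusted p from 0.0538 to 0.157). B cells also express both genes. The mean level of the 8 B cell markers lay between 11.21 and 11.81 in unstimulated channels, 11.31 and 11.92 at 1 h, 10.18 and 10.66 at 4 h, then 10.99 and 11.15 at 24 h. Their part in the Irf4 and Irf8 levels was not tested.

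**Figure D2:**
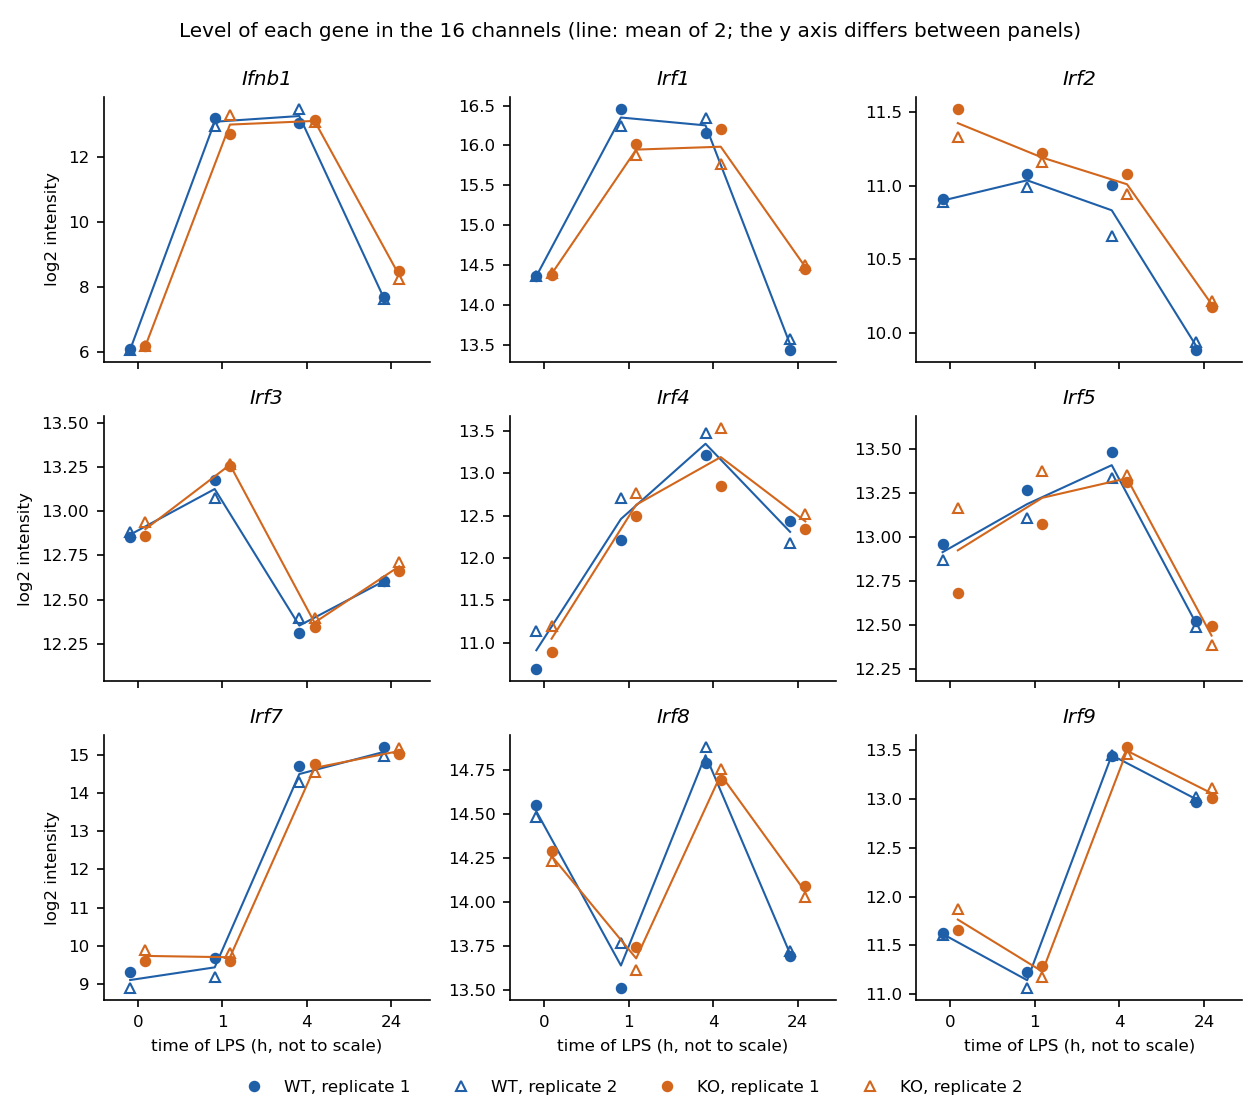
Normalized log2 intensity (y axis, its range set per panel) of each of the 9 genes against hours of LPS (x axis, not to scale) in WT (blue) and KO (orange). Filled circles are replicate 1, open triangles replicate 2 and lines join the means of 2 channels. Ifnb1 and Irf1 are high at 1 h and 4 h and Irf7 and Irf9 from 4 h, and at 24 h the KO channels of Irf1 (14.45 and 14.50) lie above those of WT (13.44 and 13.58).

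Counted over the 9 genes, LPS changed 5 in WT at 1 h (3 higher, 2 lower), where 8.51% of all features tested passed (3.39% higher, 5.12% lower). At 4 h it changed 8 (7 higher, 1 lower), where 34.7% of all features passed (15.5% higher, 19.3% lower). At 24 h it changed 8 (4 higher, 4 lower), where 30.4% passed (13.5% higher, 17% lower). In KO the counts were 6 at 1 h (4 higher, 2 lower), against 7.46% of all features (3.09% higher, 4.37% lower), 9 at 4 h (7 higher, 2 lower), against 36% (16.2% higher, 19.7% lower), and 6 at 24 h (4 higher, 2 lower), against 28.6% (12.7% higher, 15.9% lower). The mean log2 level of the 6 markers of large peritoneal macrophages, all lower at 24 h in both genotypes, was then 10.10 to 10.43, against 13.38 to 13.61 without LPS, and its part in the 24 h changes was not tested. The genes lower at 24 h were Irf1, Irf2, Irf3 and Irf8 in WT and Irf2 and Irf5 in KO. The WT change of Irf5 was -0.41 (adjusted p = 0.0545), and with the replicate block it passed too (0.0202), which made the WT count 9. The Irf3 call (-0.26, adjusted p = 0.0296) was lost without any of the 4 arrays at 0 h and 24 h (adjusted p from 0.103 to 0.142), and with loess alone in place of scaling between arrays its value was 0.065. The Irf5 call in KO (-0.48, adjusted p = 0.024) was lost without replicate 1 at 24 h (0.0737), replicate 2 at 24 h (0.16) or unstimulated replicate 2 (0.313), and with loess alone the value was -0.17 (0.675). The median log2 change of the 9 at 4 h was 1.83 in WT, against -0.000906 over all features tested, and 1.59 in KO, against 0.00139. Between 4 h and 24 h all 9 changed in WT (2 higher, 7 lower), where 29.7% of all features did (15.1% higher, 14.6% lower), and 8 in KO (1 higher, 7 lower), where 30.7% did (15.6% higher, 15.1% lower). The KO call of Irf4 between 4 h and 24 h (-0.76, adjusted p = 0.0186) was lost without replicate 1 at 24 h (0.125), replicate 2 at 24 h (0.053), replicate 2 at 4 h (0.239) or with loess alone (-0.44, 0.188). Those that rose from 4 h to 24 h were Irf3 and Irf7 in WT and Irf3 in KO. The Irf3 call in WT (0.25, adjusted p = 0.0379) was lost without any of the 8 arrays (adjusted p from 0.0599 to 0.193), and that in KO (0.32, adjusted p = 0.0101) without replicate 2 at 24 h (0.0854) or replicate 1 at 4 h (0.0637). Without the 4 h arrays the counts at 1 h and 24 h were unchanged in both genotypes, at 5 and 8 in WT and 6 and 6 in KO.

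KO and WT were compared directly within each array. None of the 9 genes passed the limma test at any time, where 0% of all features passed without LPS and at 1 h, 0.0135% at 4 h and 0.0244% at 24 h. Unadjusted p-values below 0.05 were found for 3 members without LPS, 1 at 1 h, 0 at 4 h, then 4 at 24 h, where 5.78%, 5.48%, 4.3% and 3.43% of all features had one. By the methods' t-test at the same unadjusted level the counts were 3, 0, 0 and 4, none after adjustment, where 4.58%, 4.75%, 3.05% and 4.1% of all features were under it. With the replicate number, which here is also the dye orientation, as a block, 2 passed without LPS and 1 at 24 h, where 1.06% and 0.585% of all features passed, and none at 1 h or 4 h, where 0.574% and 0.566% did. The block takes the mean replicate difference in KO/WT out of the error. Its p-values measure the spread that is left, not the spread between replicates.

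The largest mean ratio among the 9 was that of Irf1 at 24 h. Its log2 KO/WT was 1.01 on replicate 1 and 0.92 on replicate 2, a mean of 0.97 (SE 0.135, 1.96-fold higher in KO, adjusted p = 0.0907). The call turned on the fit. It passed with the replicate block (adjusted p = 0.00486) and without the 4 h arrays or either of them (adjusted p = 0.0346), and other alternatives gave adjusted p from 0.0905 upward. On the other arrays the Irf1 ratio was 0.01 and 0.04 without LPS, -0.43 and -0.37 at 1 h (mean -0.40, SE 0.135, adjusted p = 0.758) and 0.04 and -0.57 at 4 h. It lay below 0 on both arrays at 1 h and above 0 on both at 24 h. The ratio was thus 1.37 higher at 24 h than at 1 h, a difference picked for these values, so a p for it would not count as a test. A second, dim Irf1 probe, matched to another accession, was well above background in all 4 channels at 1 h and at 4 h and in 0 of 4 without LPS and at 24 h. Its KO/WT ratio was -0.06 at 1 h and -0.33 at 4 h, against -0.40 and -0.27 for the probe used. The size of the 1 h value, and so of the 1.37 difference, thus rests on 1 probe. At 1 h the mean of both probes was -0.23. No ratio is given for the second probe at 24 h, and the mean of both probes then (0.56, adjusted p = 0.178) averages in a probe at background.

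Irf2 was higher in KO on all 8 arrays. Its log2 ratio was 0.61 and 0.44 without LPS, 0.14 and 0.17 at 1 h, 0.07 and 0.28 at 4 h, then 0.29 and 0.28 at 24 h. Averaged over the 4 times it was 0.29 (SE 0.0475, 1.22-fold, adjusted p = 0.0468), the single member past the threshold in that comparison, where 0.566% of all features passed and 0.244% were higher. The fit took the 8 arrays as independent, while over all features the KO/WT ratios of same-numbered arrays deviated together (r from 0.475 to 0.679 between times). P-values of means over the 4 times may therefore be too small. The Irf2 call was at the edge. It was lost without any of the 8 arrays in turn (adjusted p from 0.0907 to 0.193), without both 4 h arrays (0.0982), with the scanner software's processed signals (0.064) and with the deposited ratios (0.0501), and with the replicate block the adjusted p was 0.00493. Without LPS alone the ratio was 0.53 (SE 0.0949, adjusted p = 0.186), and 0.0245 with the block. On those unstimulated arrays the marker lists of large peritoneal macrophages averaged 0.07 and 0.14, of B cells 0.14 and 0.23, of T and NK cells 0.46 and 0.05, of dendritic cells -0.19 and 0.01, of neutrophils -0.07 and -0.04 and of mesothelial and stromal cells 0.22 and 0.03, and their part in the Irf2 ratio was not tested. Only 1 of 5 neutrophil probes and 4 to 5 of 7 mesothelial and stromal probes were well above background there.

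The Irf7 ratio was 0.28 and 0.99 without LPS, -0.10 and 0.63 at 1 h, 0.04 and 0.28 at 4 h, then -0.17 and 0.22 at 24 h, higher on replicate 2, which has KO in Cy3, at each time. So was the mean ratio of the macrophage markers (0.01 and 0.25 without LPS, -0.22 and 0.15, -0.08 and 0.06, -0.08 and 0.07 at 1, 4 and 24 h) and of the mast cell markers (-0.14 and 0.56, 0.05 and 0.24, -0.19 and 0.80, 0.21 and 0.72). That of T and NK cells was lower on replicate 2 at each time (0.46 and 0.05, 0.85 and 0.09, 0.31 and -0.35, 0.30 and 0.06), and the other lists varied in direction. The part of any of these in the Irf7 ratio was not tested. The replicate term of the limma fit with the block was -0.51 for Irf7 (adjusted p = 0.012), past the threshold for Irf7 alone among the 9 members. The mean Irf7 ratio without LPS was 0.63 (SE 0.207, 1.55-fold, adjusted p = 0.579), and with the replicate block it passed (adjusted p = 0.0193), as did the mean over all times of 0.27 (adjusted p = 0.379, and 0.0122 with the block, where 5.99% of all features passed over all times). Ifnb1 was above WT on both arrays at 24 h, at 0.78 and 0.63 (mean 0.71, SE 0.186, 1.63-fold, adjusted p = 0.65), and of mixed sign at 1 h (-0.50 and 0.32) and 4 h (0.10 and -0.40). No ratio is given for it without LPS, where both genotypes were at background. Irf8 was -0.26 and -0.25 without LPS (adjusted p = 0.828) and 0.40 and 0.31 at 24 h (mean 0.35, adjusted p = 0.939). On the same 24 h arrays the B cell markers averaged -0.01 and 0.16, the dendritic cell markers 0.10 and 0.04, those of large peritoneal macrophages -0.06 and -0.33, of T and NK cells 0.30 and 0.06, of neutrophils -0.26 and 0.27 and of mesothelial and stromal cells 0.03 and 0.13. At 24 h 1 of 5 neutrophil probes, 4 of 7 dendritic cell probes and 3 to 4 of 7 mesothelial and stromal probes were well above background. The part of these lists in the 24 h ratios was not tested. Irf3, Irf4, Irf5 and Irf9 stayed between -0.37 and 0.34 on all 8 arrays, and their mean over all times had an adjusted p of at least 0.61.

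The LPS response, the KO/WT ratio with LPS minus that without, passed for none of the 9 genes at 1 h, 4 h or 24 h by limma, as for 0% of all features at each. Their unadjusted p was under 0.05 for 1, 1 and 2 members, where 1.39%, 2.9% and 3.33% of all features were under it. Leaving out Ifnb1, whose unstimulated levels were at background, the largest was Irf1 at 24 h, at 0.94 (SE 0.191, adjusted p = 0.556, and 0.0572 with the block), followed in size by Irf7 at 24 h, at -0.61 (SE 0.292), and Irf8 at 24 h, at 0.61 (SE 0.152, adjusted p = 0.81). Those with an unadjusted p under 0.05 were Irf1 and Irf8 at 24 h and Irf2 at 1 h (-0.37) and 4 h (-0.35).

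**Figure D3:**
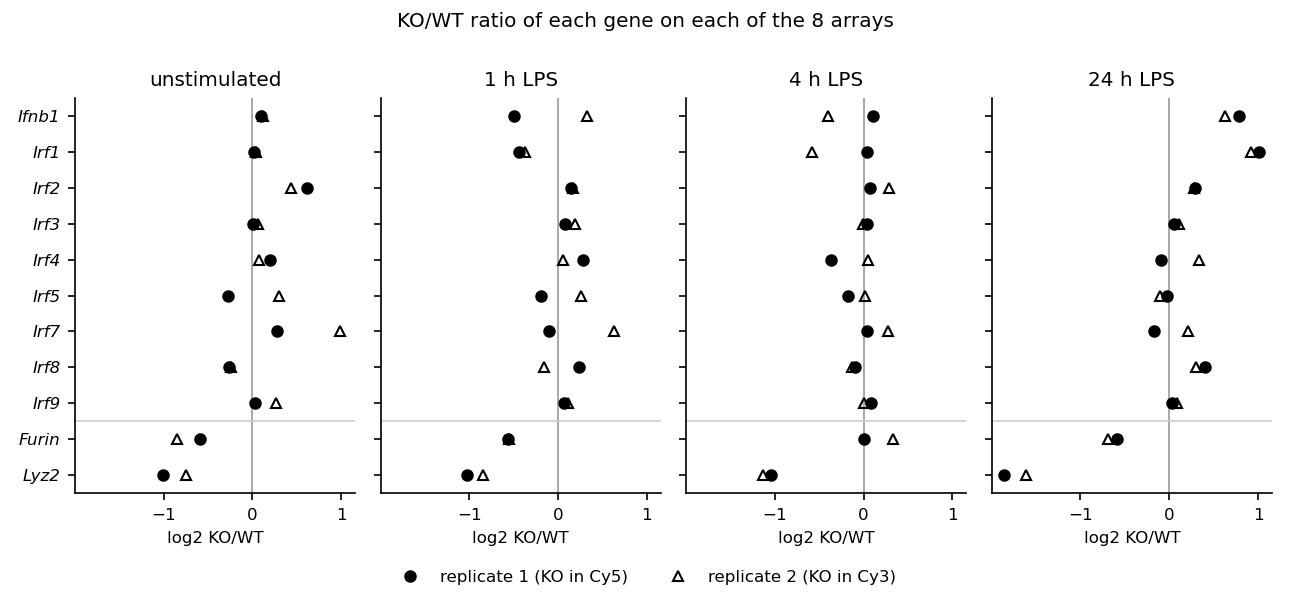
Log2 KO/WT ratio (x axis) of the 9 genes and of the checks Furin and Lyz2 (below the grey line) on each array, by time of LPS. Filled circles are replicate 1 (KO in Cy5), open triangles replicate 2 (KO in Cy3). Irf1 lies at 1.01 and 0.92 at 24 h, Irf2 is right of 0 on all arrays, and Furin is left of 0 except at 4 h (0.00 and 0.33).

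Other genes of the pathway were counted by list at 4 h, where 15.5% of all features were higher and 19.3% lower in WT and 16.2% and 19.7% in KO. Of 15 genes of the LPS receptor, its TRIF arm and the kinases that phosphorylate Irf3, 9 rose and 2 fell in WT at 4 h and 7 rose and 2 fell in KO. Those that changed most were Peli1, a ubiquitin ligase of the TRIF arm (9.08-fold higher in WT, 7.67-fold in KO), the kinase scaffolds Tank (4.75-fold and 4.20-fold) and Azi2 (3.41-fold and 3.40-fold), and the LPS co-receptor Cd14 (2.87-fold and 3.80-fold). In the MyD88 arm, 9 of 11 rose and 2 fell in each genotype, led by the adaptor Myd88 itself (4.76-fold and 4.79-fold) and its inhibitor Irak3 (3.25-fold and 3.43-fold). Of 12 nucleic acid sensors and their adaptors, 7 rose and 4 fell in WT and 6 rose and 4 fell in KO. The RNA sensors Ifih1 (53.5-fold and 50.0-fold), Dhx58 (12.5-fold and 13.3-fold) and Ddx58 (11.6-fold and 11.5-fold) and the nucleic acid sensor Zbp1 (20.5-fold and 15.6-fold) changed most.

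Of 14 partners of the interferon regulatory factors at the Ifnb1 enhancer and elsewhere, 9 rose and 1 fell in each genotype at 4 h. The AP-1 family factors Batf2 (higher by 3.81 on the log2 scale in WT and 3.85 in KO) and Batf (9.46-fold and 9.38-fold), the NF-kappa-B subunit Nfkb1 (8.48-fold and 9.26-fold) and Stat2, the partner of Irf9 (6.16-fold and 6.13-fold), led them. Of 15 regulators of the factors, 7 rose and 5 fell in each. The inhibitors Socs1 (51.0-fold and 36.6-fold), Usp18 (23.7-fold and 26.2-fold) and Tnfaip3 (16.8-fold and 16.2-fold) changed most. Of 9 interferon receptors and their kinases, 2 rose and 4 fell in WT and 2 rose and 3 fell in KO. The receptor chains Ifngr1 (2.18-fold lower in WT, 2.30-fold in KO) and Ifnar1, which interferon beta binds (2.15-fold and 2.18-fold lower), fell, and the kinases Jak2 (9.68-fold and 9.66-fold) and Jak1 (1.76-fold and 1.51-fold) rose. Of 15 other interferon genes measured, 12 rose in WT and 10 in KO, and none fell. Ifng, not well above background without LPS, was at least 6.40-fold higher in WT and at least 7.81-fold in KO. Ifna5 (3.43-fold and 2.22-fold), Ifna2 (2.92-fold and 2.30-fold) and Ifna1 (2.87-fold and 2.27-fold) followed, and the near-identical Ifna genes may share signal between probes.

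All 26 type I interferon-stimulated genes measured rose at 4 h in both genotypes, by a median of 4.92 (log2) in WT and 4.67 in KO, and all 26 were still higher at 24 h, by 4.35 and 4.02. Of all features, 13.5% in WT and 12.7% in KO were higher at 24 h. At 1 h, before Irf7 and Irf9 rose, 11 of the 26 were higher and 1 lower in WT and 8 higher and 4 lower in KO. The shares of all features at 1 h were 3.39% higher and 5.12% lower in WT, and 3.09% and 4.37% in KO. Cxcl10, a chemokine (517-fold and 320-fold at 4 h), and the antiviral genes Rsad2 (469-fold and 344-fold), Ifit1 (310-fold and 236-fold) and Cmpk2 (304-fold and 243-fold) changed most. In the direct comparison of KO with WT, no gene of these lists passed by limma at any time or over all times. Of the 26 interferon-stimulated genes, 12 had an unadjusted p under 0.05 without LPS, 1 at 1 h, 1 at 4 h, then 5 at 24 h (by the methods' t-test 9, 0, 0 and 1, and 0 after adjustment), and in the other lists 0 to 5 did at each time. The shares of all features under that p were 5.78%, 5.48%, 4.3% and 3.43% (4.58%, 4.75%, 3.05% and 4.1% by the methods' t-test). The median ratio of the 26 was 0.37 without LPS, 0.09 at 1 h, 0.08 at 4 h, then 0.19 at 24 h, against medians over all features between -0.00387 and 0.00368, and with the replicate block 5 of the 26 passed without LPS, 0 at 1 h, 1 at 4 h, then 2 at 24 h, against 1.06%, 0.574%, 0.566% and 0.585% of all features.

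**Figure D4:**
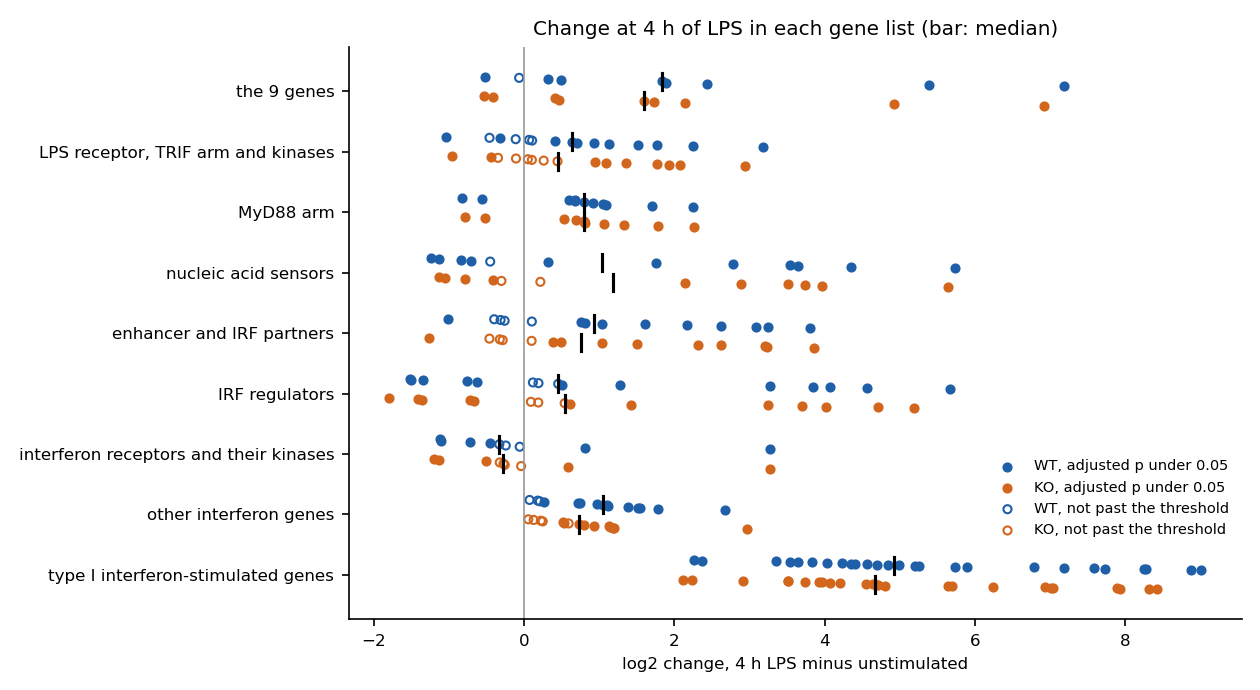
Log2 change from unstimulated cells to 4 h of LPS (x axis) of the 9 genes and of each pathway list (rows) in WT (blue) and KO (orange). Each point is a gene, filled where the adjusted p was under 0.05, and the black bar is the list's median. The interferon-stimulated genes lie furthest right, with medians of 4.92 in WT and 4.67 in KO, and all of their points are filled.

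The genes whose levels ran most like each member over the 16 channels were looked up among 6934 named genes with a span of at least 1 log2 unit, as a description, since the channels share arrays, time and dye. Ifnb1 was most like Bcl2l11 (r = 0.990), Tnf (0.989) and Dusp8 (0.989). Irf7 was most like the interferon-stimulated genes Oas3 (0.997), Zbp1 (0.995) and Isg20 (0.994), and Irf9 most like Dtx3l (0.995), Irgm1 (0.994) and Mitd1 (0.992). Irf4 was most like Sema7a (0.983), Traf4 (0.979) and Arid5a (0.967), Irf1 like Dyrk2 (0.965), Nfkbie (0.952) and Ddx5 (0.951), Irf2 like Cd86 (0.970) and F5 (0.962), and Irf8 like Telo2 (0.958), AI837181 (0.947) and Eef1aknmt (0.946). Irf3 and Irf5 spanned less than 1 log2 unit and were not looked up. Among the members themselves, Irf7 and Irf9 ran most alike (r = 0.95), then Ifnb1 and Irf1 (0.91) and Ifnb1 and Irf4 (0.83), and Irf3 ran opposite to Irf9 (-0.94) and Irf7 (-0.82).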

How the data were processed

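The deposited scanner files hold red and green median spot intensities and local backgrounds, extracted with Agilent Feature Extraction 10.7.3 per the labels. The authors' deposited matrix of normalized log2 ratios (Cy5 over Cy3; array medians 0.00612 to 0.0108) and the processed signal intensities served as alternatives. With limma 3.58.1 (R 4.3.3), intensities were normexp-corrected (offset 50), loess-normalized within and quantile-normalized between arrays, with outlier spots left out, and probes were named through RefSeq transcript accessions (27509 of 55681). Features with a mean log2 intensity under 6 were left out (36947 tested). KO/WT ratios were fitted per time, and LPS changes from separate channels (36927 features, within-spot correlation 0.107), with eBayes and Benjamini-Hochberg adjustment over all features, threshold 0.05. The fits were also run on data simulated with independent arrays. That run could not show how they act where same-numbered samples deviate together. Same-numbered samples deviated together (r from 0.214 to 0.679 over all pairs of times), so the replicate number is a pairing found in the data, and it equals the dye orientation. All 8 arrays share 1 slide and 1 scan. The number of arrays limits the precision.

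Named genes were the 9 members, the checks Furin and Lyz2, up to 4 genes per pathway list with the largest WT change at 4 h past the threshold in both genotypes, list genes past it between KO and WT, and the 3 genes most like each member, 1 of which is not reported here. 2 list symbols were read under newer names, and 9 list genes were not measured. Members and lists were chosen with earlier results of these data known.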

Additional observations from a re-analysis of the deposited data

How the results depend on the processing

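With 2 samples per group, a p over the threshold does not show that KO and WT were alike. Replicate number and dye orientation cannot be told apart, so the replicate block removes both. For KO/WT its p-values leave out the mean difference between replicates, so they do not measure the spread between replicates. The block gave 2 members for KO/WT without LPS (Irf2, Irf7), 1 at 24 h (Irf1) and 2 over all times (Irf2, Irf7). In the comparisons added after the data were seen it gave 1 for 24 h minus 1 h and 1 for 24 h minus 4 h. That member was Irf1 in both, picked for its values, so these calls do not count as tests. There 31 and 58 of all features passed, and 0 without the block. For LPS the block added the 24 h change of Irf5 in WT (adjusted p = 0.0202) and the 24 h against 4 h change of Irf7 in KO. It changed no other call of the values given. Over all features the block raised the calls from 0 to 391 without LPS, 0 to 212 at 1 h, 5 to 209 at 4 h, 9 to 216 at 24 h, 209 to 2212 over all times and 2756 to 4352 for KO at 1 h of LPS. The 209 features over all times became 37 with the 4 h arrays left out, 126 with processed signals, 129 with the mean of probes and 1 to 159 without each array in turn, and at 1 h of LPS the calls without each array in turn were 1797 to 3297 in WT (3141 with all arrays) and 1435 to 2841 in KO. The block also gave 12 features for the LPS response at 4 h and 78 at 24 h, in place of 0. The 5 features at 4 h became 1 with processed signals, 2 with the stricter filter, 3 with the deposited ratios and 0 to 8 without each array in turn, and the 9 at 24 h became 3, 4, 14 and 0 to 11, 4 with the mean of probes and 14 with Aquantile or loess alone. The methods' t-test after adjustment called 0 features at 4 h and at 24 h, and for LPS at 1 h, 4 h, 24 h and 24 h against 4 h it called 0, 1847, 17 and 12 in WT (limma 3141, 12823, 11242 and 10971) and 3, 779, 630 and 1 in KO (limma 2756, 13278, 10575 and 11344).

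The KO/WT count over all times, 1 (Irf2), was 0 with processed signals, with the deposited ratios, with the 4 h arrays left out (an alternative chosen after seeing the data) and without each array in turn (0 to 0). At 24 h it was 0 to 1 without each array in turn and 1 with the 4 h arrays left out (Irf1). With loess alone 5 members passed between 4 h and 24 h in KO in place of 8, and the 24 h change of Irf3 became 0.065 in WT and 0.12 in KO and that of Irf8 in KO 0.24; the cause was not tested. Between 4 h and 24 h loess alone ended the calls of Irf9 in WT (-0.10) and KO (-0.12) and of Irf2 (-0.32), Irf8 (-0.33) and Irf4 in KO and added that of Irf7 in KO (0.77). Calls gained elsewhere were Irf3 in WT at 1 h (stricter filter, mean of probes and processed signals; adjusted p from 0.0343 to 0.0491), Irf3 in KO at 24 h (stricter filter and mean of probes; 0.0477 and 0.046) and Irf5 in WT at 24 h (stricter filter, processed signals and no within-spot correlation; 0.0154 to 0.0493), and with Aquantile the 4 h call of Irf5 in KO was lost (0.0549). Loess alone moved called values by over 1.5 times for Irf8 in WT at 24 h (-0.81 to -0.41), Irf2 in KO at 4 h (-0.41 to -0.74) and, between 4 h and 24 h, Irf2 (-0.92 to -0.42) and Irf7 (0.58 to 0.93) in WT and Irf3 (0.25 to 0.64 in WT, 0.32 to 0.70 in KO) and Irf5 (-0.90 to -0.58, -0.89 to -0.59) in both, the mean of probes did so for Irf1 in KO between 4 h and 24 h (-1.51 to -0.98), and with processed signals the changes of Ifnb1 from background were 4.62 to 10.89 (log2). The methods' t-test on 2 channels against 2 gave after adjustment 0, 3, 0 and 0 members in WT (1 h, 4 h, 24 h, 24 h against 4 h) and 0, 1, 0 and 0 in KO, and at an unadjusted p under 0.05 6, 8, 9 and 8 in WT and 6, 7, 7 and 7 in KO, against 13.1%, 31.1%, 27.9% and 26.2% and 13.7%, 28.4%, 27.1% and 26% of all features. Without each array in turn the WT change of Irf2 at 4 h ran from -0.24 to 0.11 and the KO change of Irf7 at 1 h from -0.18 to 0.11. LPS counts without each array in turn were 4 to 5, 6 to 8 and 7 to 8 in WT (1 h, 4 h, 24 h) and 4 to 6, 7 to 9 and 5 to 6 in KO. Leaving out the background correction or the filter changed no call of the values given.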

Other observations

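Counts for the pathway lists at 1 h and 24 h of LPS were as follows. At 1 h, where 8.51% of all features passed in WT and 7.46% in KO, 5 of 15 genes of the LPS receptor, TRIF arm and kinases were higher and 1 lower in WT (5 and 2 in KO), 4 of 11 of the MyD88 arm were higher and 0 lower (3 and 1 in KO), and 5 of 14 enhancer and factor partners were higher and 2 lower (4 and 2 in KO). None of the 15 other interferon genes passed at 1 h in either genotype by limma (0 in WT and 2 in KO at an unadjusted p under 0.05, and 4 and 6 by the methods' t-test, against 18.2% and 18% of all features, and 13.1% and 13.7% by the t-test), when Ifnb1 was already at least 128-fold above background in WT. At 24 h, where 30.4% of all features passed in WT and 28.6% in KO, 2 of these 15 were higher in each genotype and 0 lower. Between 4 h and 24 h 10 fell in each, where 14.6% of all features fell in WT and 15.1% in KO. Of the 9 interferon receptors and their kinases, 2 were higher and 4 lower at 24 h in each genotype.

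Of the 6 markers of large peritoneal macrophages, 1 was lower at 1 h in each genotype, 5 in WT and 4 in KO at 4 h and all 6 in both at 24 h, and none was higher. Of all features, 5.12%, 19.3% and 17% were lower at 1, 4 and 24 h in WT, and 4.37%, 19.7% and 15.9% in KO. Their 24 h changes ran from -6.78 to -0.80 (log2) in WT and from -7.30 to -0.81 in KO, widest for Alox15 and narrowest for Icam2. The mean log2 level of the 6 markers was 13.38 to 13.61 in unstimulated channels, 13.01 to 13.23 at 1 h, 12.42 to 12.91 at 4 h and 10.10 to 10.43 at 24 h, while that of the 5 macrophage markers was 13.72 to 14.03, 13.42 to 13.80, 12.94 to 13.35 and 13.24 to 13.32.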
